A study of Homo sapiens with 9 samples.

Results

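The calnexin-calreticulin cycle, the quality-control loop for glycoproteins in the endoplasmic reticulum (ER), was examined as 8 named genes: CALR, CANX, PDIA3, UGGT1, UGGT2, GANAB, PRKCSH and MOGS. They were taken by name for their place in the cycle, with no threshold on their values, though with earlier results of these data known, and were 8 of 18239 genes on the array. Each gene was represented by every probe set, a set of short probes read out together, that the array annotation gives exactly 1 gene symbol, which made 29 of 45253 such probe sets. The brightest probe set of a gene on average gave its main value, and all values are log2 expression values, so that a difference of 1 is a doubling.

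The 9 arrays came from K562, an established human leukaemia line that grows in suspension, in 3 groups of 3 arrays. The first group had been transduced with the Del52 form of CALR, the second with the Ins5 form, and the third with wild-type CALR. All 3 groups had been through 4 cycles of infection with retroviral supernatant, 1 every 12 h, a further 36 h of culture and selection for the surface marker NGFR, with a purity above 90% 48 h after selection. All 3 groups also carry a transduced form of CALR beside the line's own copies, so none shows K562 cells without a transduced CALR. The labels number the arrays 1 to 3 in each group without saying that they came from separate transductions or cultures, so p-values measure only the spread between these arrays. The array's probe positions were not used here, and whether a CALR probe lies in the sequence that differs between the 3 forms, or in the transduced copy at all, is not known from the files.

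Proteins that enter the ER receive a branched glycan tipped with glucoses. MOGS, glucosidase I, removes the outermost glucose, and glucosidase II, made of the catalytic subunit GANAB and the regulatory subunit PRKCSH, removes those that follow. The glycan with its last glucose is held by CANX, calnexin, a lectin anchored in the ER membrane, or by CALR, calreticulin, its soluble relative in the ER lumen. PDIA3, a disulfide isomerase also called ERp57, binds both lectins and acts on the disulfide bonds of the held protein. UGGT1 puts a glucose back on proteins that are not yet folded and so returns them to the lectins, and UGGT2 is its relative. In myeloproliferative neoplasms, frameshift mutations in the last exon of CALR, of which Del52 and Ins5 are the common types, replace the end of the protein and remove its KDEL signal for retention in the ER.

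The 9 arrays were alike, with medians between 3.73 and 3.76 and pairwise correlations of 0.974 to 0.998. Principal component analysis put 70.5% of the variance between arrays on a first axis, which set wild-type replicate 2 at one end and wild-type replicate 3 at the other. The second axis held 10% and set Del52 replicate 1 against wild-type replicate 1. All 8 measured of 10 K562 markers lay above the highest of the 23 antigenomic control probe sets, probes with no human target, in every array. Of 11 measured markers of other cells, 3 did so (LYZ, EPCAM and KRT19), and the remaining 8 had means of at most 3.65. The NGFR probe set read 3.34 to 3.48 in Del52, 3.39 to 3.45 in Ins5 and 3.33 to 3.42 in wild-type arrays, within the range of those controls, so that the arrays do not show the selected marker, and whether its probes lie in the transduced marker is not known from the files.

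No cycle gene passed a Benjamini-Hochberg adjusted p of 0.05 in any comparison of 1 limma fit over all genes, and 0% of all genes passed in each comparison. PDIA3 had the largest difference between Del52 and wild-type arrays among the 8, higher by 0.42, and UGGT2 the largest between Del52 and Ins5 arrays, lower by 0.43. In Del52 against wild type, 4 of the 8 were higher and 4 lower, where 54.6% of all genes were higher, with a median log2 fold change of -0.015, against 0.01 over all genes, and 1 of 8 had an unadjusted p under 0.05, against 7.05% of all genes. In Ins5 against wild type, 4 were again higher and 4 lower, where 59.6% of all genes were higher, with a median of -0.004, against 0.02 over all genes, and 2 of 8 had an unadjusted p under 0.05, against 7.41%. Both comparisons share the wild-type arrays. In Del52 against Ins5, 6 were higher and 2 lower, where 45.4% of all genes were higher, with a median of 0.014, against -0.01 over all genes, and 1 of 8 had an unadjusted p under 0.05, against 5.77%. A moderated F test over the 3 groups passed 0 of 8, with 2 of 8 (PDIA3 and UGGT2) under an unadjusted p of 0.05, against 7.23% of all genes. With array weights, which gave wild-type replicate 1 a weight of 67 against 0.237 to 1.82 for the other 8 arrays, 2, 3 and 0 of the 8 passed in these comparisons, and 3190, 4017 and 0 of all genes.

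**Figure D1:**
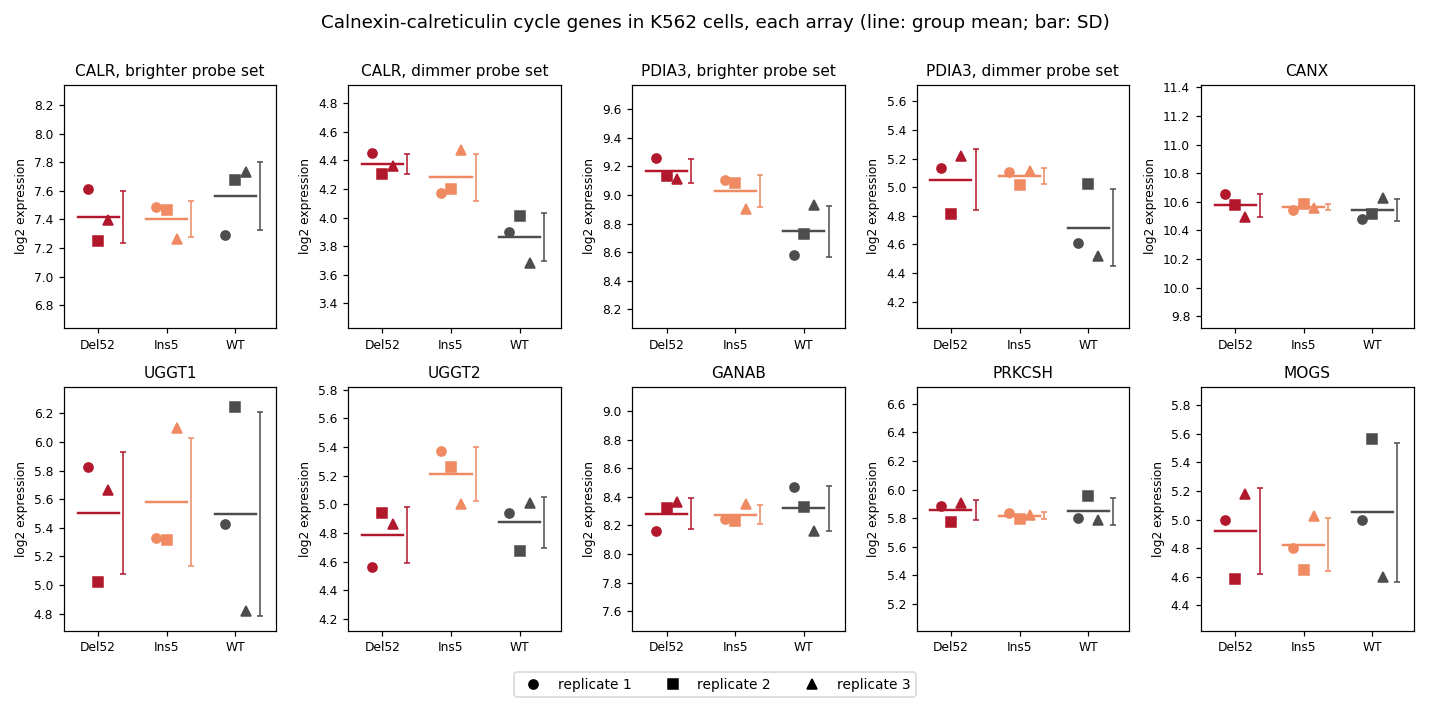
Log2 expression in every array for the main probe set of each of the 8 cycle genes and for the dimmer probe sets of CALR and PDIA3, in 1 panel each, with equal spans on the vertical axes; points are arrays shaped by replicate number, lines are group means and bars the SD of 3 arrays. On the main probe set of PDIA3 all 3 Del52 points, 9.11 to 9.26, lie above all 3 wild-type points, 8.58 to 8.93.

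The lectin CALR, the gene that had been transduced, showed no difference beyond the spread between arrays on its main probe set, 11715374_a_at. That probe set read 7.61, 7.25 and 7.40 in Del52 arrays, 7.48, 7.47 and 7.26 in Ins5 arrays, and 7.29, 7.67 and 7.73 in wild-type arrays. The 3 groups overlapped, with 2 of the wild-type arrays the highest of all 9 and the third among the lower ones. The log2 fold change was -0.15 for Del52 against wild type (95% interval -0.47 to 0.17, limma adjusted p = 0.918) and -0.16 for Ins5 against wild type (-0.48 to 0.16, adjusted p = 0.893). Del52 and Ins5 differed by 0.015, with an interval of -0.30 to 0.33. Without wild-type replicates 2 and 3, a setting added after the data were seen, the first 2 values turned to 0.125 and 0.11.

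A second, dimmer CALR probe set, 11715375_x_at, separated the mutant arrays from the wild-type arrays. It read 4.45, 4.31 and 4.36 in Del52 arrays, 4.17, 4.20 and 4.47 in Ins5 arrays, and 3.90, 4.01 and 3.68 in wild-type arrays. All 6 mutant arrays lay above all 3 wild-type arrays, which 2.43% of all probe sets showed. The log2 fold change was 0.51 for Del52 (interval 0.26 to 0.76, unadjusted p = 0.00155, adjusted p = 0.603 over all probe sets) and 0.42 for Ins5 (0.17 to 0.66, unadjusted p = 0.00484, adjusted p = 0.53), and between Del52 and Ins5 it was 0.092 (-0.16 to 0.34). With the first principal component as a covariate the adjusted p was 0.0499 for Del52, 0.0611 for Ins5 and 0.032 for both mutants averaged and set against wild-type arrays. With array weights these were 0.0144, 0.0107 and 0.00218, and with the replicate number as a block each was 1. Those weights put 67 on wild-type replicate 1, and 3190, 4017 and 6232 of all genes passed with them. Quantile normalization gave adjusted p-values of 0.628, 0.562 and 0.503, in the same order. Leaving out 1 array gave 0.545, 0.526 and 0.503 as the smallest, so the probe set passed in none of those fits. The antigenomic controls spanned 1.53 to 6.52, a range that includes all these readings. The 2 CALR probe sets had log2 fold changes of opposite sign against wild type, and their correlation over the 9 arrays did not pass the test (Pearson r = -0.47, exact permutation p = 0.197, Spearman rho = -0.48, exact p = 0.194, adjusted 0.244 and 0.271 over 21 such pairs, and r = -0.09 without wild-type replicate 3 and Del52 replicate 2).

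**Figure D2:**
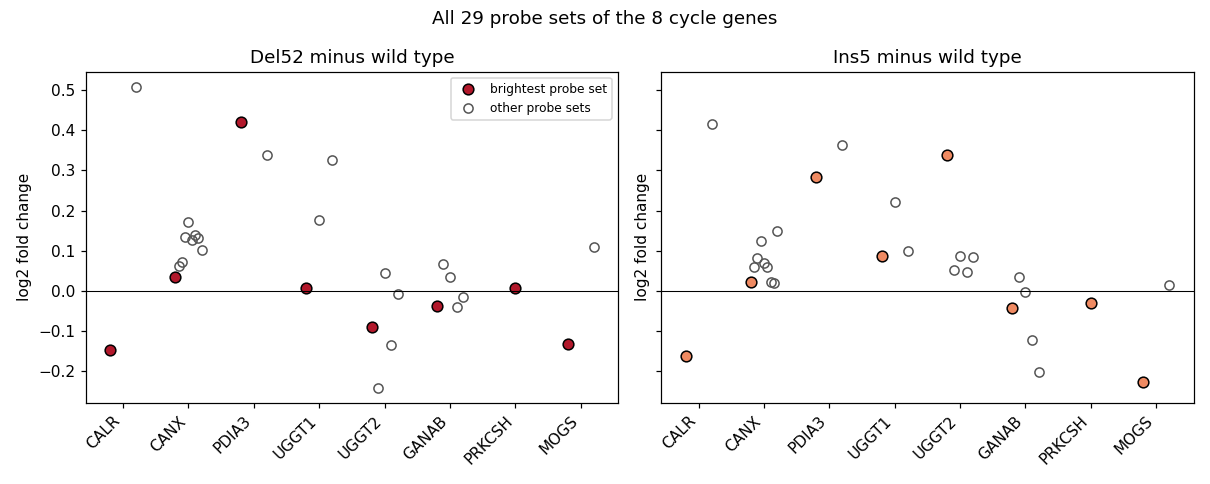
Log2 fold change of all 29 probe sets of the 8 cycle genes, for Del52 minus wild type (left) and Ins5 minus wild type (right); filled points are the main probe sets and open points the others. The 9 CANX probe sets lie above 0 in both panels, between 0.034 and 0.171 for Del52, while the 2 CALR probe sets lie on opposite sides of 0.

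CANX, the membrane-bound lectin, varied little, with a main-value range of 0.18 over the 9 arrays. Probe set 11727425_s_at read 10.66, 10.57 and 10.49 in Del52 arrays, 10.54, 10.59 and 10.56 in Ins5 arrays, and 10.48, 10.52 and 10.62 in wild-type arrays, with full overlap of the groups. Its log2 fold change was 0.034 for Del52 (interval -0.10 to 0.17, adjusted p = 0.986) and 0.022 for Ins5 (-0.11 to 0.15), and 0.012 between Del52 and Ins5 (-0.12 to 0.14). All 9 CANX probe sets, which read the same gene and are not independent, were higher in Del52 than in wild-type arrays, by 0.034 to 0.17 with a median of 0.13, where 53.4% of all probe sets were higher. In 4 of the 9 the 3 Del52 arrays lay above the 3 wild-type arrays, against 6.01% of all probe sets, 2 of the 9 had an unadjusted p under 0.05, against 6.87%, and the smallest adjusted p was 0.685. In Ins5 arrays the 9 were higher than in wild-type arrays by 0.019 to 0.15 with a median of 0.059, where 54.9% of all probe sets were higher. In 2 of the 9 the groups did not overlap, against 7.36% of all probe sets, and the smallest adjusted p was 0.648.

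Stretches of 250 bases upstream of a start site are shown for CALR and CANX because they were the cycle genes with a full ER stress response element, a CCAAT box and a CCACG box set 9 bases apart, which the factors ATF6 and NF-Y are known to bind. They are from RefSeq (GRCh38.p14), on the plus strand, with the gene start just after the last base, for CALR at chr19:12938359-12938608 and for CANX at chr5:179698679-179698928. Capitals mark both boxes of the element, which in CALR lies on the opposite strand.
CALR: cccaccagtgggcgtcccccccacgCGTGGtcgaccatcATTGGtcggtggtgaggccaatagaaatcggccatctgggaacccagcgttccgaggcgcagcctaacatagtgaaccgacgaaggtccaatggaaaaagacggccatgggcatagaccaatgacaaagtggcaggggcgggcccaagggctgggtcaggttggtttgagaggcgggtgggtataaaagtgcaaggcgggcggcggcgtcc
CANX: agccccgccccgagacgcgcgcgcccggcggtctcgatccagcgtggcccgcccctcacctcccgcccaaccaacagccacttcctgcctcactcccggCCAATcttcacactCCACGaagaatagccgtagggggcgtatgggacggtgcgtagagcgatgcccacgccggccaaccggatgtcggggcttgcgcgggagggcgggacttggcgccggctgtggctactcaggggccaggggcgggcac
Both strands of each promoter from 250 bases before to 50 after the start were searched for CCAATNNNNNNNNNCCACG. It was in 27 of 35116 promoters, 0.0769%, and counted by gene in 25 of 27305, 0.0916%. Among the 6 cycle genes in the promoter table it was in CALR and CANX (GANAB, PRKCSH, UGGT1 and UGGT2 held none in this window, and PDIA3 and MOGS were not in the table). In CALR its first base lies 225 bases before the start, and in CANX 151 bases before the start shown. The same element lies in 3 of the 4 CANX starts in the table. Of the 25 genes with the element, which include the ER chaperones HSPA5 and HSP90B1 and the folding enzyme PDIA6, 18 were measured. In Del52 against wild type 8 were higher, 9 lower and 1 at 0, with a median log2 fold change of -0.008, and in Ins5 against wild type 11 were higher and 7 lower, with a median of 0.018. Over all genes 54.6% and 59.6% were higher. None of the 18 passed the limma test in either comparison, and 4 of them in Del52 and 2 in Ins5 arrays had an unadjusted p under 0.05, against 7.05% and 7.41% of all genes.

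PDIA3, the disulfide isomerase that works with both lectins, was higher in Del52 arrays, though it did not pass the test over all genes. Probe set 11743441_s_at read 9.26, 9.13 and 9.11 in Del52 arrays, 9.10, 9.09 and 8.90 in Ins5 arrays, and 8.58, 8.73 and 8.93 in wild-type arrays. All Del52 arrays lay above all wild-type arrays, which 6.23% of all genes showed, and above all Ins5 arrays, which 3.81% showed, while the lowest Ins5 array was below the highest wild-type array. Means were 9.17 ± 0.08 for Del52 arrays, 9.03 ± 0.11 for Ins5 arrays and 8.75 ± 0.18 for wild-type arrays (SD, n = 3 each). The log2 fold change against wild type was 0.42 for Del52 (interval 0.19 to 0.65, unadjusted p = 0.00279, limma adjusted p = 0.603) and 0.28 for Ins5 (0.06 to 0.51, unadjusted p = 0.0207, adjusted p = 0.614). Del52 and Ins5 differed by 0.14, with an interval of -0.09 to 0.36. By its unadjusted p in Del52 against wild type PDIA3 was at rank 77 of all genes. Groups accounted for 73.5% of the variance of PDIA3 between arrays, against a median of 21.3% over all genes. With array weights the Del52 value was 0.61, with a limma adjusted p of 0.0122. Those weights were 67 for wild-type replicate 1 and 0.237 and 0.285 for wild-type replicates 2 and 3, and 3190 of all genes passed. With the first principal component as a covariate the adjusted p was 0.0763, and with 1 array left out it was 0.532 to 0.996. PDIA3 also did not pass with the replicate number as a block.

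The second PDIA3 probe set, 11743440_at, was dimmer. It read 5.13, 4.81 and 5.21 in Del52 arrays, 5.11, 5.01 and 5.12 in Ins5 arrays, and 4.61, 5.02 and 4.51 in wild-type arrays. Wild-type replicate 2 lay among the mutant arrays and the other 2 below them. Its log2 fold change was 0.34 for Del52 against wild type (unadjusted p = 0.052) and 0.36 for Ins5 against wild type (unadjusted p = 0.0393), and -0.027 for Del52 against Ins5. All these readings lie within the range of the antigenomic controls, 1.53 to 6.52.

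**Figure D3:**
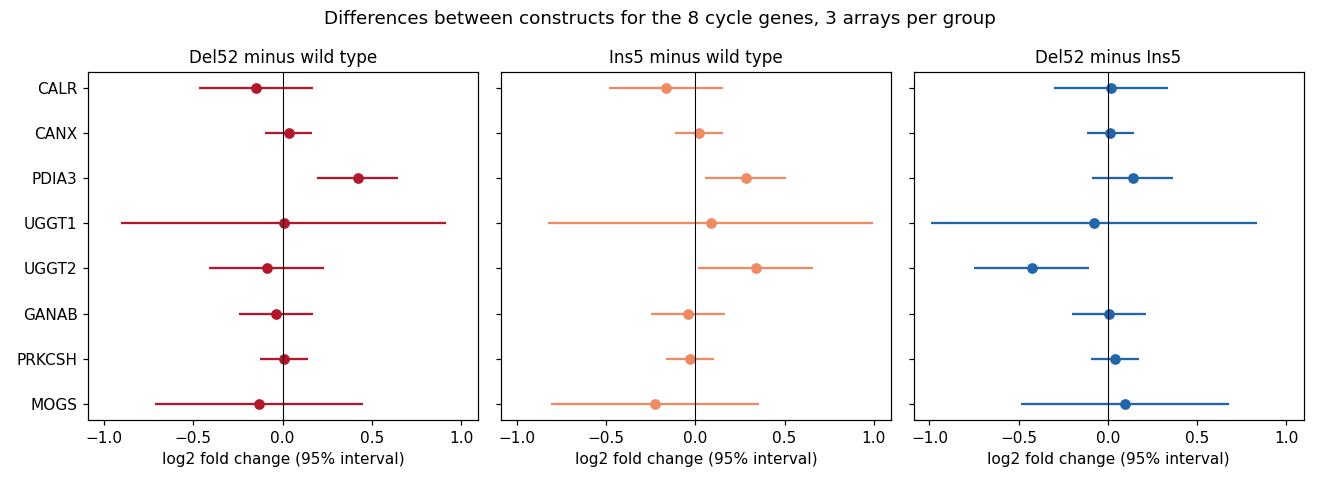
Log2 fold change of the main probe set of each cycle gene, with its 95% interval from the fit of all 9 arrays, for each mutant against wild type and for the mutants against each other. The intervals of PDIA3 in both comparisons with wild type and of UGGT2 in the comparisons of Ins5 with wild type and of Del52 with Ins5 lie off 0, and no adjusted p is under 0.05.

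Of the folding sensors, UGGT2 differed most between the mutants, though it did not pass the test over all genes. Probe set 11759672_x_at of UGGT2 read 4.56, 4.94 and 4.86 in Del52 arrays, 5.37, 5.26 and 5.004 in Ins5 arrays, and 4.94, 4.67 and 5.01 in wild-type arrays. All Del52 arrays lay below all Ins5 arrays, which 6.28% of all genes showed, and the wild-type arrays overlapped both. The log2 fold change was -0.43 for Del52 against Ins5 (interval -0.75 to -0.11, unadjusted p = 0.0155, limma adjusted p = 0.841) and 0.34 for Ins5 against wild type (0.02 to 0.66, unadjusted p = 0.0413, adjusted p = 0.651). For Del52 against wild type it was -0.089 (-0.41 to 0.23). The 5 UGGT2 probe sets, which read the same gene and are not independent, were all lower in Del52 than in Ins5 arrays. Their log2 fold changes were -0.43 to -0.042 with a median of -0.18, where 48.6% of all probe sets were higher. On all but the main one the 2 groups overlapped. The next brightest, 11719445_a_at, gave -0.29 (unadjusted limma p = 0.168) and had r = 0.14 with the main one (exact permutation p = 0.726). The mean of the 5 probe sets gave -0.21 for Del52 against Ins5 and 0.12 for Ins5 against wild type. The antigenomic controls reached up to 6.52, above every main-value reading of UGGT2, UGGT1, PRKCSH and MOGS, whereas CALR, CANX, PDIA3 and GANAB lay above them in all 9 arrays.

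UGGT1, the enzyme that puts glucose back on unfolded glycoproteins, varied more than the other 7 genes on main probe sets, over a range of 1.43. Probe set 11742021_a_at read 5.83, 5.02 and 5.66 in Del52 arrays, 5.33, 5.32 and 6.10 in Ins5 arrays, and 5.43, 6.25 and 4.82 in wild-type arrays. Both its highest and its lowest array were wild type, and groups accounted for 0.75% of its variance. The log2 fold change was 0.008 for Del52 against wild type, with an interval of -0.90 to 0.92, and 0.086 for Ins5, with an interval of -0.83 to 0.996, so that changes close to a doubling in either direction stay within the error. Leaving out 1 array moved the Del52 value between -0.33, without wild-type replicate 3, and 0.38, without wild-type replicate 2. Its 3 probe sets varied together, with r = 0.85 (exact permutation p = 0.00388, adjusted p = 0.0272, rho = 0.80) and 0.87 (exact p = 0.00195, adjusted p = 0.0204, rho = 0.85) between the main one and the others, and r = 0.90 and 0.89 without wild-type replicate 2 and Ins5 replicate 3.

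On their main probe sets, the trimming glucosidases GANAB, PRKCSH and MOGS showed no difference between the groups beyond the spread between arrays. GANAB, the catalytic subunit of glucosidase II, read 8.16, 8.32 and 8.36 in Del52 arrays, 8.25, 8.23 and 8.35 in Ins5 arrays, and 8.47, 8.33 and 8.16 in wild-type arrays. The 3 groups overlapped, and the log2 fold change against wild type was -0.038 for Del52 (interval -0.25 to 0.17) and -0.043 for Ins5 (-0.25 to 0.16). PRKCSH, its regulatory subunit, with 1 probe set, read 5.88, 5.78 and 5.91 in Del52 arrays, 5.84, 5.79 and 5.82 in Ins5 arrays, and 5.80, 5.95 and 5.79 in wild-type arrays. Its range of 0.18 was as small as that of CANX, and its log2 fold changes were 0.008 for Del52 (-0.13 to 0.14) and -0.030 for Ins5 (-0.17 to 0.11). MOGS, glucosidase I, read 4.997, 4.59 and 5.18 in Del52 arrays, 4.80, 4.65 and 5.02 in Ins5 arrays, and 4.997, 5.56 and 4.60 in wild-type arrays. Its log2 fold changes were -0.13 for Del52 (interval -0.71 to 0.45) and -0.23 for Ins5 (-0.81 to 0.36), and both changed sign without wild-type replicate 2, to 0.124 and 0.029. The second MOGS probe set, 11747419_a_at, gave 0.11 for Del52 and 0.014 for Ins5.

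The main axis of variation between the arrays ran through some of these genes. Over 9 arrays and 16 relations of the 8 genes with the first 2 components, UGGT1 followed the first component with Pearson r = 0.96 (exact permutation p = 9.09e-05, adjusted p = 0.00146) and Spearman rho = 0.98 (adjusted exact p = 0.000794). MOGS did so with r = 0.93 (exact p = 0.000237, adjusted p = 0.0019) and rho = 0.96, and PRKCSH with r = 0.83 (exact p = 0.0047, adjusted p = 0.0251) and rho = 0.85 (adjusted exact p = 0.0324). Without wild-type replicates 2 and 3, r was 0.90 for UGGT1, 0.92 for MOGS and 0.73 for PRKCSH. Both components were computed from all genes, these 8 included, so the p-values do not test a relation with something measured apart. The median absolute r with the first component was 0.56 over all genes, and CALR had r = -0.05 and PDIA3 r = -0.22. CANX and PDIA3 ran against the second component with r = -0.78 (exact p = 0.00884, adjusted p = 0.0354) and r = -0.74 (exact p = 0.021, adjusted p = 0.0672), with rho = -0.72 (adjusted exact p = 0.118) and rho = -0.80 (adjusted exact p = 0.0553). Without Del52 replicate 1 and wild-type replicate 1 these were -0.31 and -0.30, so both rest on those arrays. The part of either component in the group values of these genes was not tested beyond the fit with the first as a covariate, in which 0 of the 8 passed and PDIA3 had an adjusted p of 0.0763 for Del52 against wild type. Of all genes, that fit passed 4 in Del52 and 7 in Ins5 against wild type, 0 in Del52 against Ins5 and 68 in both mutants against wild type.

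**Figure D4:**
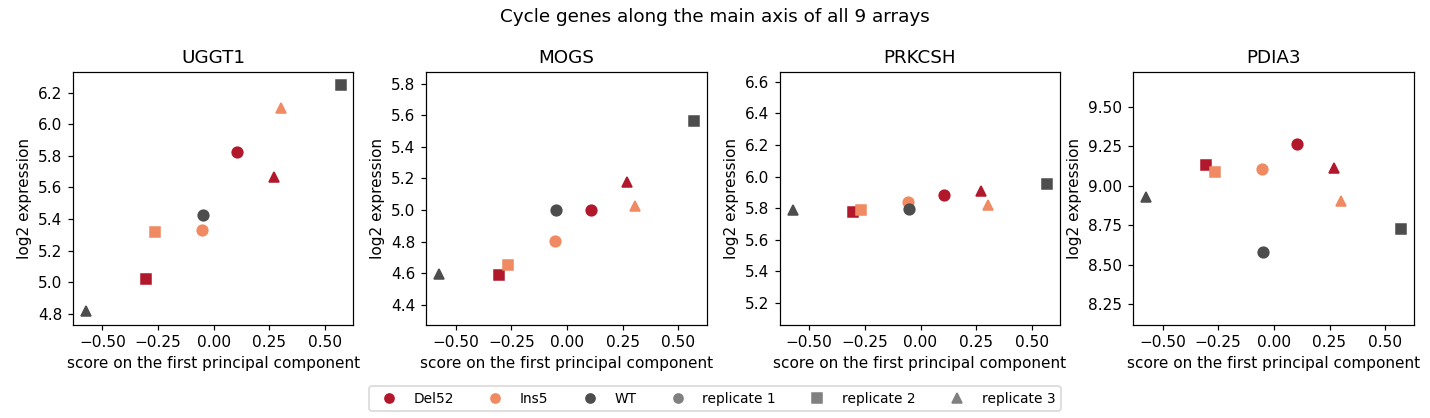
Log2 expression of UGGT1, MOGS, PRKCSH and PDIA3 (vertical axes of equal span) against the score of each array on the first principal component; colour marks the Del52, Ins5 and wild-type groups and shape the replicate number. UGGT1, MOGS and PRKCSH follow the component (r = 0.96, 0.93 and 0.83), with wild-type replicates 2 and 3 at its ends, and PDIA3 has r = -0.22.

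Among the 28 pairs of cycle genes, 3 were correlated over the 9 arrays at an adjusted exact p under 0.05, each with an adjusted p of 0.0183. UGGT1 and MOGS had r = 0.87 (exact p = 0.00196, rho = 0.92, and r = 0.85 without wild-type replicate 2 and Ins5 replicate 3), and PRKCSH and MOGS r = 0.89 (exact p = 0.00105, rho = 0.90, and r = 0.65 without wild-type replicate 2 and Del52 replicate 3), all 3 genes being those that follow the first component. CANX and GANAB ran in opposite directions on their main probe sets, with r = -0.88 (exact p = 0.00193, rho = -0.92), and r = -0.77 without Del52 replicate 1 and wild-type replicate 1. Their ranges over the 9 arrays were 0.18 and 0.31. The main probe set had r of 0.41 to 0.87 with the other probe sets of CANX, and 0.49 to 0.78 with those of GANAB. As a description over the same 9 arrays, the 5 genes with the most similar values were taken among 9119 genes above the median level. For CALR they were CLN8 (r = 0.964), FKBP15 (0.899), PTK2B (0.898), HEXIM1 (0.894) and ETV3L (0.893). For CANX they were DERL1 (r = 0.983), SCAMP2 (0.980), JMJD6 (0.979), MRPL23 (0.974) and ASAP3 (0.953). For PDIA3 they were RAB12 (r = 0.972), NDUFB11 (0.965), ALG5 (0.962), CALML4 (0.950) and MANF (0.944). Each list is the top of 9119 correlations over only 9 arrays, so its high r values come partly from the choice. They were not tested.

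Genes next to the cycle, a list of ER and cargo lectins, mannosidases and their relatives, folding enzymes and cofactors such as PPIB, TAPBP and ENTPD5, and KDEL receptors, gave 19 measured of 21 listed. In Del52 against wild type 9 were higher and 10 lower, with a median log2 fold change of -0.041, and in Ins5 against wild type 11 were higher and 8 lower, with a median of 0.012. Over all genes 54.6% and 59.6% were higher in these comparisons. None passed in any comparison, and an unadjusted p under 0.05 was found for 4 of the 19 in Del52 arrays, against 7.05% of all genes, and for 2 in Ins5 arrays, against 7.41%. CALR3, a paralog of CALR known from testis, had the smallest p of the list in both comparisons. It read 2.49, 2.53 and 2.48 in Del52 arrays, 2.47, 2.55 and 2.53 in Ins5 arrays, and 2.34, 2.22 and 2.29 in wild-type arrays, levels that the antigenomic controls also reach. That put its log2 fold change at 0.21 for Del52 (unadjusted p = 0.00193, limma adjusted p = 0.603) and 0.23 for Ins5 (unadjusted p = 0.0012, adjusted p = 0.466). KDELR1, a receptor that returns KDEL-bearing proteins to the ER, had the smallest p between Del52 and Ins5. It read 7.945, 7.965 and 7.975 in Del52 arrays, 8.05, 8.07 and 8.11 in Ins5 arrays, and 8.14, 8.09 and 8.04 in wild-type arrays. The Del52 arrays were the lowest 3 of the 9. Of all genes, 6.28% had all Del52 arrays below all Ins5 arrays, and 4.36% had them below all wild-type arrays. The log2 fold change of KDELR1 was -0.12 for Del52 against Ins5 (unadjusted p = 0.0228, limma adjusted p = 0.841). For Del52 against wild type it was -0.128 (unadjusted p = 0.0137, adjusted p = 0.606).

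The 6 genes of the ER stress response that regulate or accompany the cycle (ATF6, XBP1, ERN1, ATF4, HSPA5 and HSP90B1) were all measured, and none passed. In Del52 against wild type 4 were higher and 2 lower, where 54.6% of all genes were higher, with a median log2 fold change of 0.098, and 3 had an unadjusted p under 0.05, against 7.05% of all genes. In Ins5 against wild type 5 were higher and 1 lower, where 59.6% of all genes were higher, with a median of 0.065, and 0 had an unadjusted p under 0.05, against 7.41% of all genes. The 3 in Del52 arrays were the chaperones HSPA5, higher by 0.26 (unadjusted p = 0.0272), and HSP90B1, higher by 0.185 (unadjusted p = 0.0307), and the ER sensor ERN1, or IRE1, higher by 0.117 (unadjusted p = 0.0264), each with a limma adjusted p of 0.655. Del52 readings of ERN1, 2.89 to 2.94, lay within the range of the antigenomic controls.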

How the data were processed

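RNA from 100000 K562 cells per sample was hybridised to Affymetrix arrays, 3 per group, per the labels. The authors deposited log2 values per probe set, made with RMA (background correction, normalization between arrays, probe summary) and Partek, per the submitters' processing notes. Their versions are not given in the sources. Arrays give no read depth, and their number limits the precision.

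Of 49386 probe sets, 93 controls were left out, and 45253 had 1 symbol in GEO's platform annotation, 1327 several and 2713 none. Of these, 45172 matched a RefSeq gene identifier. No build is named for the array annotation. The brightest probe set stood for each of 18239 genes. All 9 arrays entered 1 fit in limma 3.58.1 (R 4.3.3) with a mean per group and 6 residual degrees of freedom, and p-values are two-sided and were adjusted by Benjamini-Hochberg over all genes, or over all probe sets for probe-set values. The test was run on simulated data with noise drawn independently for each gene. Those data lack the shared axis of these arrays, so they do not show how the test performs here. Correlations over arrays used exact permutation tests over 362880 orders (Python 3.11.15).

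The members and gene lists were chosen with earlier results of these data known. Named genes are the 8 members, the member of the list of neighbouring genes with the smallest p per comparison, and the genes most like CALR, CANX and PDIA3. ERN1, HSPA5, HSP90B1 and the element genes were named after their values were seen. Alternatives were quantile normalization, median centring, other gene summaries, array weights, a replicate block, the first component as a covariate, and each array left out. At most 4.07% of values were identical between any 2 arrays.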

Additional observations from a re-analysis of the deposited data

How the results depend on the processing

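The alternatives comprised 20 settings, 9 of which left out 1 array, and gave 844 values, of which 756 were counted as the same. A fold change was counted so if it kept its direction and its side of the threshold, and a count of passing genes if it was equal. A median of the 8 was counted so if it moved by less than 0.06, even where its sign changed. Part of the 756 was fixed in advance. Several settings, such as the replicate block, alter the test but leave every fold change as it was. Leaving out an array likewise cannot move a fold change between the other 2 groups. The 756 is therefore not a measure of robustness. The count of passing cycle genes stayed at 0 except with array weights, whose estimation stopped before it converged. There 2 passed in Del52 against wild type (PDIA3 at 0.609 and GANAB at -0.218), 3 in Ins5 against wild type (PDIA3 at 0.483, UGGT2 at 0.348 and GANAB at -0.208), 3 in both mutants against wild type (CANX, PDIA3 and GANAB) and 3 in the F test. Of all 18239 genes, 3190, 4017, 6232 and 5345 passed there, in the same order. The same setting turned CALR to 0.178 (Del52), 0.146 (Ins5) and 0.162 (both mutants), PRKCSH to 0.027 (Ins5) and 0.048 (both mutants), and in Del52 against Ins5 UGGT1 to 0.157 and GANAB to -0.01, and moved the median of the 8 to 0.091 (Del52) and 0.08 (both mutants). Without wild-type replicates 2 and 3, which leaves 1 wild-type array assumed to vary like the other groups, the medians were 0.067 (Del52), 0.096 (Ins5) and 0.074 (both mutants), CALR was 0.125, 0.11 and 0.117, and PRKCSH 0.019 (Ins5) and 0.038 (both mutants). The mean of all probe sets gave medians of 0.058 (Del52) and 0.094 (Ins5), CALR 0.18, 0.127 and 0.154, GANAB 0.002 (Del52) and, in Del52 against Ins5, UGGT1 0.035. Quantile normalization gave GANAB -0.001 in Del52 against Ins5 and PRKCSH 0.004 in both mutants, median centring gave UGGT1 -0.007 and PRKCSH -0.006 in Del52, and the first component as a covariate gave UGGT1 -0.048 in Del52. Leaving out 1 array gave medians of -0.076 to 0.042 (Del52), -0.069 to 0.026 (Ins5), -0.011 to 0.089 (Del52 against Ins5) and -0.056 to 0.033 (both mutants). In the order Del52, Ins5, Del52 against Ins5 and both mutants, it gave CANX -0.007 to 0.077, -0.009 to 0.064, -0.029 to 0.053 and -0.003 to 0.07, GANAB -0.117 to 0.038, -0.123 to 0.033, -0.036 to 0.067 and -0.12 to 0.036, MOGS -0.358 to 0.124, -0.454 to 0.029, -0.034 to 0.262 and -0.406 to 0.076, and UGGT1 -0.332 to 0.382, -0.254 to 0.46, -0.239 to 0.181 and -0.293 to 0.421. PRKCSH ranged over -0.02 to 0.061 (Del52), -0.058 to 0.023 (Ins5) and -0.039 to 0.042 (both mutants), UGGT2 over -0.19 to 0.023 (Del52) and CALR over -0.081 to 0.1 (Del52 against Ins5). The cause of these changes was not tested. PDIA3 stayed positive in Del52 against wild type in all settings run, at 0.338 to 0.513 with 1 array left out. With the replicate number as a block, 0 cycle genes passed and the smallest adjusted p was 1. Deviations of same-numbered arrays from their group means had r = 0.643 and 0.565 between Del52 and Ins5 for replicates 2 and 3. Between wild-type replicates 2 and 3 and the same-numbered mutant arrays r was -0.923 to -0.869. For replicate 1 it was -0.604 to -0.328. The numbers are therefore not taken to pair the samples, and a block by number does not follow this pattern. Whether arrays shared a batch is not known from the labels and was not tested.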
